A study of Mus musculus with 2 samples.

Results

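The miR-181 family was examined in gastrocnemius, a calf muscle, from female mice of the strain B6CASTF1/J aged 2 months. The family comprises 6 of the 2202 microRNA genes in the files, Mir181a-1, Mir181a-2, Mir181b-1, Mir181b-2, Mir181c and Mir181d, chosen by gene name in GENCODE mouse release 21, and compared as the 3 genomic clusters in which they lie. Small RNA under 30 nt was sequenced in 2 libraries of 1 group, labelled biological replicates 2 and 1, with no treatment and no second condition. The females are numbered as separate animals in the labels but carry 1 donor code, and any spread between libraries may be partly technical. All values are counts of reads on the gene's own strand, or those counts scaled to the library's own-strand microRNA total (CPM, the usual counts-per-1e6 scale). The libraries held 2291821 such counts in replicate 2 and 1950204 in replicate 1, so 3 counts equal 1.31 and 1.54 CPM. Of the listed microRNA genes, 278 (12.6%) had at least 10 counts in each library and are called detected.

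A microRNA gene is transcribed as a hairpin, from which a short 5p strand and a short 3p strand are cut. A mature microRNA guides silencing complexes to messenger RNAs that pair with its seed, bases 2 to 8. The miR-181 microRNAs are known from mouse work as regulators of myoblast differentiation, where miR-181 was described as repressing the homeobox gene Hoxa11, and of T cell receptor signalling in thymocytes. In rat heart, miR-181c has been described inside mitochondria, acting on a mitochondrial transcript.

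The mature sequences decide which of these genes a read can be assigned to, and are therefore shown first. RefSeq (GRCm38.p6) lists a mature 5p and 3p sequence for 6 of the 6 genes, 12 entries in all with 10 distinct sequences. The lines below run 5′ to 3′, with the seed in capitals. The 5p strands are the main family products, and 4 sequences serve 6 genes.
miR-181a-5p (from Mir181a-1 and from Mir181a-2): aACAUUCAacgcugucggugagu
miR-181b-5p (from Mir181b-1 and from Mir181b-2): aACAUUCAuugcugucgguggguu
miR-181c-5p (from Mir181c): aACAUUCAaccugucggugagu
miR-181d-5p (from Mir181d): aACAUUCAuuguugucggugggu
All 4 carry the seed ACAUUCA, which no mature sequence outside the family had in the RefSeq table. With positions counted from 1 at the 5′ end of the first-named sequence, miR-181b-5p differs from miR-181a-5p by A9U, C10U and A21G and is 1 base longer. miR-181d-5p differs from miR-181b-5p by C12U and is 1 base shorter. miR-181c-5p is 1 edit away from miR-181a-5p.

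The 3p strands tell the copies apart, which the 5p strands do not, and are shown for that reason.
miR-181a-1-3p: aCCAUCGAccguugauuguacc
miR-181a-2-3p: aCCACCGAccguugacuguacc
miR-181b-1-3p: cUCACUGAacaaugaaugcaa
miR-181b-2-3p: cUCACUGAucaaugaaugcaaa
miR-181c-3p: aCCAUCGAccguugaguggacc
miR-181d-3p: cCCACCGGgggaugaauguca
The 3p strands of the miR-181a copies differ by U5C and U16C, the first of which lies in the seed. Those of the miR-181b copies share the seed UCACUGA and differ by A9U and by 1 base in length. miR-181a-1-3p and miR-181c-3p share the seed CCAUCGA. Each 3p sequence occurred in no other microRNA gene, as did miR-181c-5p and miR-181d-5p.

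A read that equals miR-181a-5p or miR-181b-5p therefore has 2 places of origin, and reads aligned to several places are counted in no gene in these files. In replicate 2 they were 72.3% of the listed reads, against 70.1% in replicate 1, and the files do not say from which microRNAs they came. The identical run around miR-181a-5p reaches 4 bases past its 3′ end in both hairpins and is 28 nt long. Around miR-181b-5p it stops at the 3′ end of the mature sequence and is 26 nt long, so a miR-181b read with 1 more templated base at that end belongs to 1 gene. Of the 20-nt windows in each hairpin, 9 of 68 in Mir181a-1, 9 of 57 in Mir181a-2, 7 of 61 in Mir181b-1 and 7 of 70 in Mir181b-2 occur in the other copy. None of the 70 windows of Mir181c or the 53 of Mir181d occurs in another microRNA gene. The counts of the 4 copied genes thus leave out an unknown number of 5p reads, while those of Mir181c and Mir181d do not face that limit among microRNA genes. The files give counts per gene and not per strand of the hairpin, so 5p and 3p reads are not separated below.

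The clusters lie on 3 chromosomes (mm10). Mir181a-1 (ENSMUSG00000065565.1, chr1:137966455-137966541) and Mir181b-1 (ENSMUSG00000065458.1, chr1:137966639-137966718) are on the plus strand, 97 bp apart, in an intron of the noncoding gene Gm4258. Mir181b-1 is also exonic in A430106G13Rik, a long noncoding gene that Mir181a-1 overlaps in part. Mir181a-2 (ENSMUSG00000065423.1, chr2:38852735-38852810) and Mir181b-2 (ENSMUSG00000065578.1, chr2:38853830-38853918) are on the plus strand, 1019 bp apart, opposite to an intron of Nr6a1, an orphan nuclear receptor gene. Mir181c (ENSMUSG00000065483.2, chr8:84178873-84178961) and Mir181d (ENSMUSG00000076338.1, chr8:84178716-84178787) are on the minus strand, 85 bp apart, in an intron of Nanos3, a germ cell gene, as this annotation draws it. No read was counted on the strand opposite to any of the 6 genes (0 counts in each library, against a limit of 3 counts).

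The family was a minor part of the reads placed in microRNA genes, and Mir181c with Mir181d held more of them than the other clusters. The other clusters lack an unknown number of 5p reads with several places. The shares below therefore order the clusters by placed reads and not by their output. The 6 genes had 3515 counts in replicate 2 and 2603 in replicate 1, which is 1534 and 1335 CPM, a mean of 1434 ± 141 CPM (SD, n = 2). As a share of all own-strand counts this came to 0.153% in replicate 2, with a 95% Clopper-Pearson exact interval of 0.148 to 0.159, and to 0.133% in replicate 1, with an interval of 0.128 to 0.139. These intervals, like all others here, hold for counting error alone and take in no spread between animals or libraries. PCR copies of 1 molecule are counted separately, which the intervals do not allow for. Of the 6 genes, 5 were detected, and Mir181b-1 was not. In whole muscle, fewer cells of a type and less RNA per cell cannot be told apart.

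**Figure D1:**
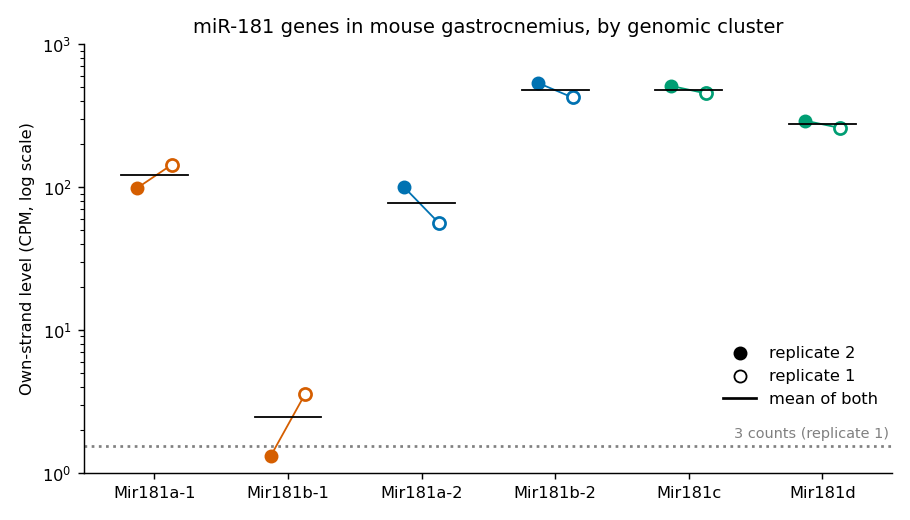
Own-strand level of each miR-181 gene in CPM on a log axis, with filled points for replicate 2, open points for replicate 1, a line at their mean and 1 colour per cluster. Mir181c and Mir181b-2 lie at the top with means of 480 and 479 CPM, Mir181b-1 lies near the dotted line of 3 counts, and Mir181a-1 and Mir181a-2 differ between the libraries in opposite directions.

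Mir181c and Mir181d, the cluster whose mature sequences are each found in 1 gene, held 52.1% of the family's counts in replicate 2 (interval 50.5 to 53.8) and 53.2% in replicate 1 (interval 51.2 to 55.1), on average 52.7% ± 0.722 (SD, n = 2). Mir181c had 1166 counts in replicate 2 and 879 in replicate 1, or 509 and 451 CPM. Mir181d had 667 counts in replicate 2 and 505 in replicate 1, or 291 and 259 CPM. Both genes were slightly higher in replicate 2, and Mir181c was above Mir181d in both libraries. The ratio of Mir181c to Mir181d counts was 1.75 in replicate 2 (interval 1.59 to 1.93) and 1.74 in replicate 1 (1.56 to 1.95), so the proportion within the cluster differed between the libraries by less than counting error.

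Mir181a-2 with Mir181b-2 came second, with 41.4% of the family's counts in replicate 2 (interval 39.73 to 43.01) and 35.8% in replicate 1 (interval 33.999 to 37.72), on average 38.6% ± 3.90 (SD, n = 2). Mir181b-2 had 1226 counts in replicate 2 and 824 in replicate 1, or 535 and 423 CPM, and its hairpin is the source of miR-181b-5p and miR-181b-2-3p. Mir181a-2 had 228 counts in replicate 2 and 109 in replicate 1, or 99.5 and 55.9 CPM. Mir181b-2 was therefore the higher gene of the cluster in both libraries, 5.38-fold above Mir181a-2 in replicate 2 (interval 4.66 to 6.22) and 7.56-fold in replicate 1 (6.18 to 9.32).

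Mir181a-1 with Mir181b-1 had the fewest counts, 6.49% of the family in replicate 2 (interval 5.69 to 7.35) and 11.0% in replicate 1 (interval 9.81 to 12.3), on average 8.74% ± 3.18 (SD, n = 2). Mir181a-1 had 225 counts in replicate 2 and 279 in replicate 1, or 98.2 and 143 CPM. Mir181b-1 had 3 counts in replicate 2 and 7 in replicate 1, or 1.31 and 3.59 CPM, at and just above the limit of 3 counts. Its CPM ratio between the libraries, 0.365, has an exact interval of 0.0609 to 1.60 that includes 1, so no difference was detectable at this depth.

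**Figure D2:**
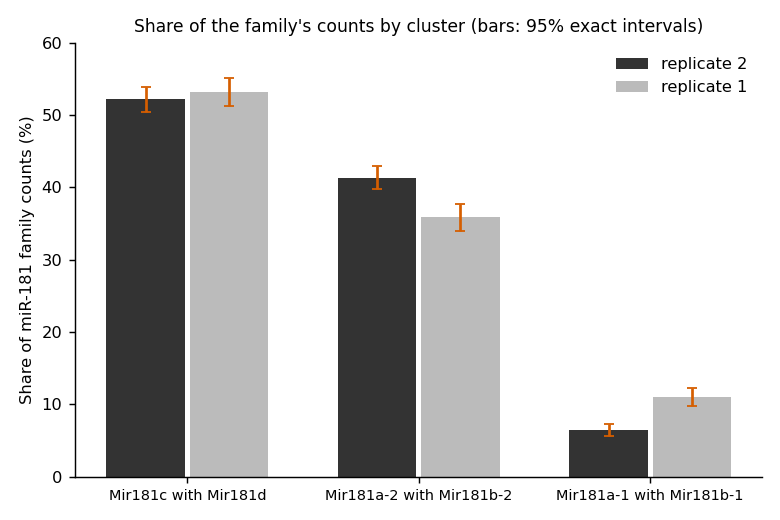
Share of the miR-181 family's counts held by each cluster, in percent, with dark bars for replicate 2, light bars for replicate 1 and 95% exact intervals of counting error. Mir181c with Mir181d is highest in both libraries at 52.1% and 53.2%, and the intervals of the other clusters do not overlap between the libraries.

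The order of the genes by mean level of placed reads was Mir181c, Mir181b-2, Mir181d, Mir181a-1, Mir181a-2 and Mir181b-1. The mature sequences are 21 to 24 nt long, and the order was the same per nucleotide of hairpin gene, at 5.39 ± 0.461, 5.38 ± 0.893, 3.82 ± 0.315, 1.39 ± 0.365, 1.02 ± 0.406 and 0.0306 ± 0.0202 CPM per nucleotide (SD, n = 2 each). Mir181c and Mir181b-2 could not be ranked, because Mir181b-2 was above Mir181c in replicate 2 and below it in replicate 1. Mir181a-1 (98.2 and 143 CPM) and Mir181a-2 (99.5 and 55.9 CPM) overlapped, being nearly equal in replicate 2. The remaining neighbours in this order did not overlap between the libraries. Among all detected genes, Mir181c ranked 79 of 278 by mean CPM, Mir181b-2 80, Mir181d 107, Mir181a-1 140 and Mir181a-2 158, against a median of 123 CPM.

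The genes outside the family with levels most like theirs were then sought. Likeness was the Euclidean distance of log2(CPM + 1) over the 2 libraries, which with so few libraries reads little beyond the level. Nearest to Mir181c outside the family were Mir676 (distance 0.088), Mir101a (0.0997) and Mir107 (0.157), the last of which lies in an intron of a pantothenate kinase gene. Mir101a (0.0972), Mir676 (0.193) and Mir328 (0.211) were the nearest such genes to Mir181b-2. Mir181a-1 had no neighbour as close, with Mir671 at 0.405, Mir493 at 0.441 and Mir431 at 0.490.

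Copies of the same microRNA were then set side by side. For miR-181b, Mir181b-2 had 409 times the counts of Mir181b-1 in replicate 2 (interval 140 to 1984) and 118 times in replicate 1 (56.9 to 294). For miR-181a, Mir181a-2 had 50.3% of the counts of the pair in replicate 2 (interval 45.63 to 55.03) and 28.1% in replicate 1 (interval 23.67 to 32.85). One pair was thus very uneven in both libraries, and the other was even in replicate 2 and uneven in replicate 1. The same arrangement, a whole mature sequence found in exactly 2 genes that do not overlap, held for 37 pairs among the genes with a RefSeq mature entry, and 21 of them had a detected gene. In 20 of these 21 both copies had counts, and the miR-181b pair had the second highest ratio of mean CPM, 195, after Mir196a-2 over Mir196a-1 (287). A ratio above 100 occurred in 4 pairs, in each of which the lower copy missed detection. The miR-181a pair, with a ratio of 1.55, ranked 19 of 20. Over the 13 pairs with both genes detected the median ratio was 2.15 and the range was 1.37 to 27.2. Of these 13, Mirlet7c-2 with Mirlet7a-1 shares let-7a-1-3p and is not a pair of copies of 1 microRNA. Mirlet7c-2 is also paired with Mirlet7c-1. The Mir1a and Mir133a genes, all detected, are not among the 37 pairs, so these ranks do not cover them. How many 5p reads of each copy went uncounted for having several places was not tested, so these ratios describe the reads that were placed and not the output of the loci.

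**Figure D3:**
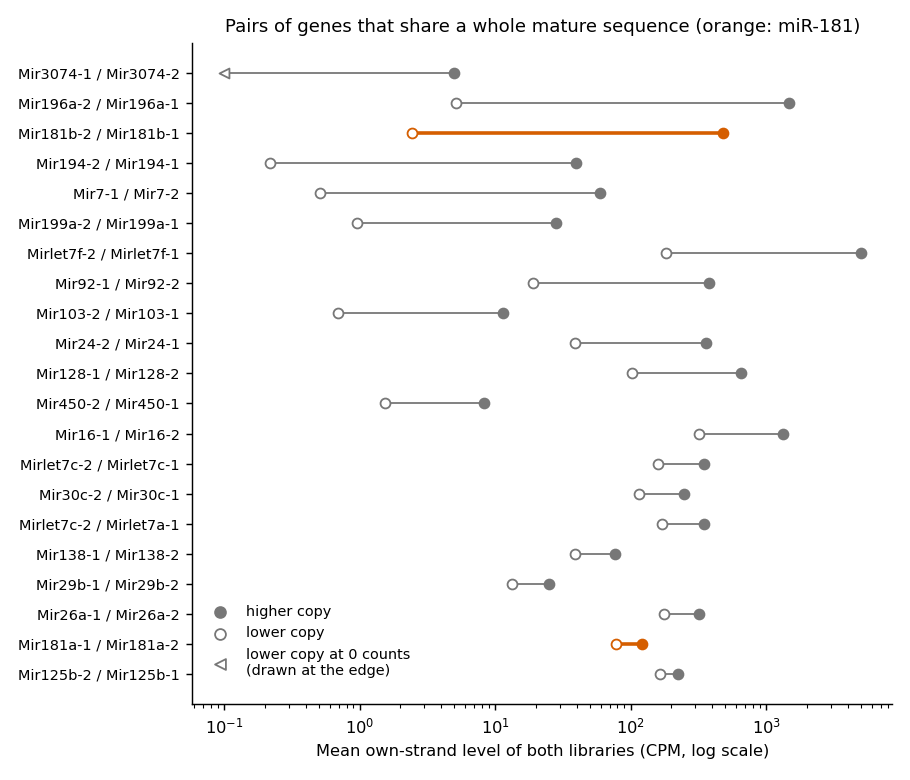
Mean own-strand level of both libraries in CPM, on a log axis, for 21 pairs of microRNA genes that share a whole mature sequence, with a filled point for the higher copy and an open point for the lower, ordered by their ratio. The miR-181 pairs, in orange, lie near opposite ends, with a ratio of 195 for miR-181b and 1.55 for miR-181a.

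The libraries were compared gene by gene as replicate 2 over replicate 1, which compares these libraries and not conditions. A gene was called at an adjusted p under 0.05 and at least 2-fold (two-sided exact binomial test on TMM-scaled library sizes, Benjamini-Hochberg over 278 genes). None of the 5 detected miR-181 genes was called, against 11.9% of all detected genes (2.52% higher and 9.35% lower in replicate 2). With 5 genes, a count of 0 is near that background. Without the fold minimum, 55.4% of detected genes passed (24.8% higher, 30.6% lower), and of the miR-181 genes 4 passed as higher and 1 as lower, since counting error is small at this depth. The common coefficient of variation that edgeR estimated between the libraries was 0.352. With it, edgeR's exact test called 7 of the 278 detected genes at 2-fold or more, and with an assumed 0.2 it called 22. In both settings 0 of the 5 miR-181 genes passed at any fold. With so few genes called over all, a count of 0 of 5 says little about the family. The estimate of 0.352 takes the differences between these same libraries as the spread, so fewer calls follow from how it is made.

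Mir181a-2, at the 95.7th percentile of the library ratios of all detected genes, was the one of the 5 detected members that differed most. Its log2 ratio was 0.86 (counting SE 0.168, adjusted exact binomial p = 4.25e-07), short of the 2-fold minimum. Mir181a-1, the other source of miR-181a-5p, was lower by −0.51 (SE 0.129, adjusted exact binomial p = 2.00e-04), at the 21.9th percentile. On the same scale Mir181b-2 was higher by 0.37 (SE 0.065), Mir181c by 0.21 (SE 0.0644) and Mir181d by 0.20 (SE 0.0851). The central 80% of detected genes had log2 ratios from −0.94 to 0.58, with a median of −0.03. All of these members but Mir181a-2 lay inside that range. The members' median was 0.21, with 4 above 0 and 1 below.

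**Figure D4:**
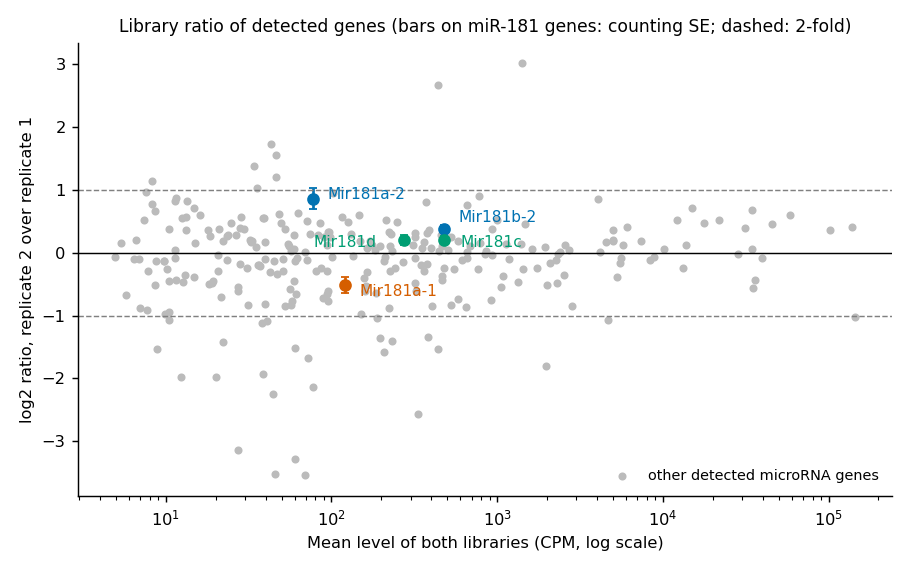
Log2 ratio of replicate 2 over replicate 1 against the mean level in CPM (log axis) for the 278 detected genes, with the miR-181 genes coloured by cluster, bars of 1 counting SE on them and dashed lines at 2-fold. All 5 detected miR-181 genes lie between the dashed lines, with Mir181a-2 at 0.86 and Mir181a-1 at −0.51.

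Genes of 1 cluster can come from 1 primary transcript, and the ratios of cluster mates were compared on that account. Mir181c and Mir181d differed by 0.0064 in their log2 ratios (counting SE 0.107), the second smallest difference of 95 neighbouring detected gene pairs within 10000 bp on 1 strand, whose median was 0.32. The difference is smaller than its SE, so its exact place among the pairs is not resolved. Mir181a-2 and Mir181b-2, farther apart along the chromosome, differed by 0.49 (SE 0.180), at place 63 of 95. The intervals of the Mir181b-2 to Mir181a-2 ratio given above overlap only at their edges between the libraries. Mir181b-1 missed detection and gives no such value for the cluster on chromosome 1.

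The miR-181a copies differed by 1.37 in their log2 ratios (Mir181a-2 minus Mir181a-1, SE 0.212, counting error). Among the 13 pairs found above with both genes detected, this was the largest difference. The next of the 13 was 0.42, for Mirlet7c-2 and Mirlet7c-1, and the median was 0.21. The Mir1a and Mir133a genes are not among the 13 and were not ranked. Their log2 ratios were 0.61 for Mir133a-1, 0.16 for Mir133a-2, 0.52 for Mir1a-2 and 0.36 for Mir1a-1. With 1 value per library for each gene, a difference between 2 animals and a difference in the preparation of 2 libraries cannot be told apart.

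**Figure D5:**
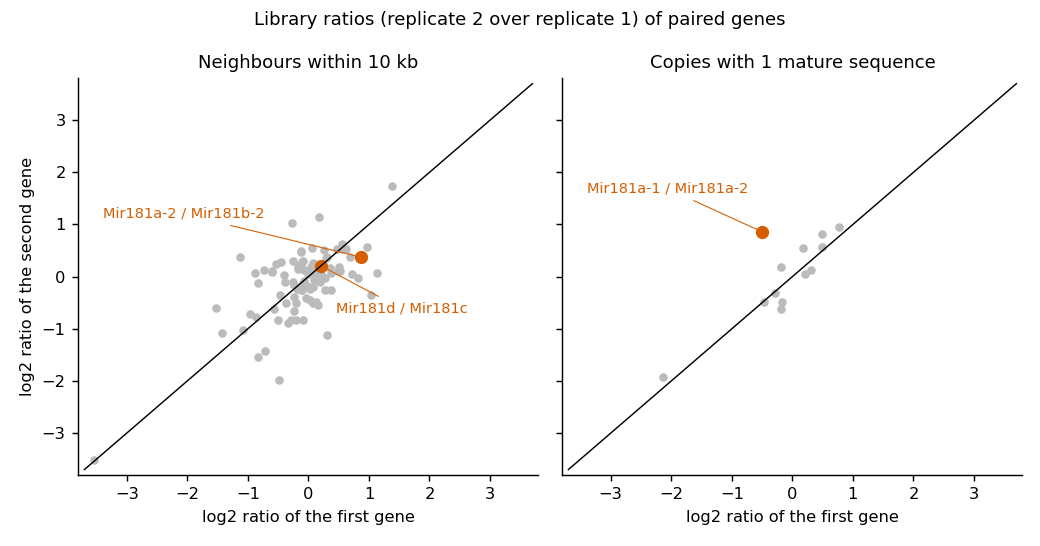
Log2 ratio of replicate 2 over replicate 1 of 1 gene of a pair against that of the other, for 95 pairs of neighbours within 10 kb (left) and 13 pairs of genes that share a mature sequence (right), with the line of equality. Mir181d with Mir181c lies on the line, and Mir181a-1 with Mir181a-2 is the pair farthest from it on the right.

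Markers of the cell types a whole muscle holds were read in the same libraries. The striated muscle list had 9 of 9 genes detected, with a summed level of 46547 CPM in replicate 2 and 27944 CPM in replicate 1. Mir206, the skeletal muscle microRNA, had the most placed reads of the list, at 41933 CPM in replicate 2 and 26708 CPM in replicate 1. Of the list, 2 of 9 genes, Mir499 and Mir208b, were called higher in replicate 2, against 2.52% of all detected genes. The median log2 ratio was 0.61, against −0.03. The Mir1a and Mir133 genes, 5 of the 9, hold 20-nt windows found in a further microRNA gene, so the list's levels leave out reads with several places, and Mir206 cannot be ranked above them. The leukocyte list bears on this family because miR-181a is known from lymphocytes, and its 5 genes summed to 2745 CPM in replicate 2 and 3677 CPM in replicate 1. Mir223 and Mir142, of myeloid and general blood cells, were called lower in replicate 2 (−1.53 and −1.33 on the log2 scale), 2 of 5 genes against 9.35% of all detected ones. Mir146, the gene of miR-146a, had a log2 ratio of −0.85 and was not called, while Mir150, of mature lymphocytes, differed by 0.03 and Mir155, of activated lymphocytes and macrophages, by 0.14. Mir181a-1 was lower in replicate 2, as Mir223, Mir142 and Mir146 were and as Mir150 and Mir155 were not. The other 4 detected members were higher, among them Mir181a-2, the other source of miR-181a-5p. The part of blood cells in the Mir181a-1 value was not tested.

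The summed smooth muscle level (Mir143 and Mir145a, both called lower) was 97334 CPM in replicate 2 and 202581 CPM in replicate 1. For the endothelial marker Mir126a the levels were 156853 CPM in replicate 2 and 120880 CPM in replicate 1. Of the 7 neural genes, 6 had 0 counts in both libraries, namely the Mir124a and Mir9 genes. All 6 hold 20-nt windows found in a further microRNA gene, so their zeros do not show that these microRNAs were absent. Mir137 was called lower in replicate 2 with 34 counts, against 143 in replicate 1. The part of these cell types in the miR-181 values was not tested.

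The 3 most abundant genes of each list below, for processes this family is linked to, were above the summed family in placed reads. They were picked for their level. Others of these lists were below that sum in placed reads, such as Mir34a (mean 362 CPM). Of 26 genes in a list for myoblast differentiation, 25 were detected, 2 were called higher and 1 lower in replicate 2. That is near the 11.9% of all detected genes called in either direction. This list holds all 9 striated muscle genes, and its 2 called higher are again Mir499 and Mir208b. The median log2 ratio was 0.31, against −0.03 over all detected genes. Its most abundant members were Mir206, Mir27b at 10252 CPM in replicate 2 and 10116 in replicate 1, and Mir29a at 7930 in replicate 2 and 8827 in replicate 1. Of 14 genes listed for mitochondria, all were detected, 1 was called higher (Mir499, as above) and 1 lower, again near 11.9%, and the median was 0.24. Mir378a, carried in a coactivator gene of mitochondrial biogenesis, led it at 114094 CPM in replicate 2 and 91325 in replicate 1, followed by Mir30a and Mir30d at means of 31325 and 13806 CPM. The miR-181 family, at 1434 CPM in sum, was below each of these most abundant genes in placed reads. That sum leaves out reads equal to miR-181a-5p or miR-181b-5p, so the family cannot be ranked below them in output.

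The cluster on chromosome 8 has an abundant neighbour on the other strand. Mir23a starts 29556 bp beyond Mir181c and was counted at 37774 CPM in replicate 2, against 41097 CPM in replicate 1, a log2 ratio of −0.09. Mir181c and Mir181d, at 0.21 and 0.20, were on the other side of 0, and none of the 3 genes was called.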

How the data were processed

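The deposited tables hold unnormalized read counts for each microRNA gene, assigned on mm10 with GENCODE mouse release 21, per the notes the authors deposited with each library. The software behind them is not given in the sources used here. Rows that name no gene (unmapped, aligned to several places, outside genes), 84.1% of reads listed in replicate 2 and 79.3% in replicate 1, entered neither library sizes nor tests. All 2202 gene identifiers matched the annotation. A chi-square of 568 per degree of freedom over the detected genes showed 2 different libraries.

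CPM were taken over own-strand counts. Library ratios come from a two-sided exact binomial test with edgeR 4.0.16 TMM factors, and log2 ratios carry a prior of 0.5 counts. The quasi-likelihood test needs a second group and was not run. Shared sequence was searched in the GENCODE microRNA transcripts on both strands, without a genome, so places outside microRNA genes were not searched. The listed name Mir146a was matched to Mir146 through its RefSeq synonym and position. The named genes are every family member, the 3 nearest genes in level to the top gene of each cluster, and up to 3 of the most abundant genes of each list. The neighbouring pairs, copies and Mir23a were chosen after values had been seen. Members, lists and tests were chosen with earlier results of these data known. The test was checked on simulated counts drawn with counting error alone. Such counts hold no spread between libraries, so the check cannot tell how many calls in these data are false. Alternatives changed scaling, count minimum, strand, fold minimum, spread, prior, denominator, length and libraries. Software was R 4.3.3, DESeq2 1.42.0 (size factors), Python 3.11.15, scipy 1.17.1, pandas 2.3.3, matplotlib 3.10.9 and numpy 2.4.6.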

Additional observations from a re-analysis of the deposited data

Results flagged for a closer look

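Reads aligned to several places lie outside the gene counts and are listed for that reason. They made up 72.33% of the reads listed in replicate 2 and 70.07% in replicate 1. Reads equal to miR-181a-5p or miR-181b-5p would fall among them by the way reads were counted, and the share they form was not tested.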

How the results depend on the processing

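The number of called genes, 33, was 154 without the fold minimum and 7 with edgeR's exact test at the estimated spread, a stricter test by construction, and stayed within 1.5 times of 33 under the other 6 alternatives. Without the fold minimum the miR-181 genes passed at unchanged log2 ratios of −0.51 (Mir181a-1), 0.86 (Mir181a-2), 0.37 (Mir181b-2), 0.21 (Mir181c) and 0.20 (Mir181d). In no alternative did a log2 ratio of these 5 genes change sign, with ranges of −0.54 to −0.48 for Mir181a-1, 0.83 to 0.89 for Mir181a-2, 0.34 to 0.40 for Mir181b-2, 0.17 to 0.24 for Mir181c and 0.17 to 0.23 for Mir181d. On library totals the adjusted exact binomial p of Mir181d was 0.0835, so it passes without a fold minimum only under some scalings (0.0129 with DESeq2 size factors). The family level of 1434 CPM became 261 CPM when scaled to all reads listed and 1969 on counts of either strand, because the denominator differs by construction. The share of Mir181c with Mir181d was 54.1% per nucleotide of gene length. Leaving out 1 library gave 1335 to 1534 CPM for the family and 52.1 to 53.2%, 35.8 to 41.4% and 6.49 to 11.0% for the clusters in the order of their size. The same 5 members counted as detected at every minimum tried. No paired analysis was possible because there is 1 group. Depth limits Mir181b-1, whose counts cannot show a difference between the libraries.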
